A study of Mus musculus with 8 samples.

Results

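Microglia are the resident macrophages of the brain, and transcripts typical of them were counted in every library of sorted SST neurons. Of the 35968 mouse genes to which transcripts could be joined, 37 were followed here. They were listed by symbol as genes of microglia, with no threshold on their values, and fall into 3 subunits of complement C1q, 11 genes of resting (homeostatic) microglia, 9 receptors, adaptors and phagocyte genes, 8 genes of reactive microglia and 6 genes of lysosomes and tetraspanins. All 37 had counts in all 8 mice, and together they held between 0.145% and 0.913% of a mouse's counts. In female 3, the mouse with the lowest share, the largest were *Ctsb* (6717 counts), *Ctsd* (3797), *Cst3* (3377) and *Apoe* (2445), against 525 for *C1qa*. The share is therefore not a measure of microglia alone, and the part of other cells in it was not tested. Across mice, *C1qa* varied 22.8-fold and the reactive gene *Cst7* 137-fold. In the same libraries the ratio of the homeostatic genes *P2ry12* and *Tmem119* to the reactive genes *Cst7*, *Spp1* and *Itgax* varied 12.03-fold, lowest in male 2 and female 1. With all 11 homeostatic genes set against the reactive genes other than *Apoe*, the ratio varied 3.69-fold.

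In the brain, resting microglia survey tissue through fine processes and depend on the receptor CSF1R for survival. They sense nucleotides through P2Y receptors and the neuronal chemokine fractalkine through CX3CR1. They are also the main source of the C1q that tags synapses and debris. When microglia meet damage, amyloid or dying cells, signaling through TREM2 and its adaptor TYROBP lowers homeostatic genes such as *P2ry12* and *Tmem119* and raises genes of lipid handling, adhesion and lysosomes such as *Cst7*, *Spp1* and *Itgax*.

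The libraries came from 4 gonad-intact male and 4 cycling female mice, 1 library per animal. Each mouse carried 1 copy of an allele that makes Cre recombinase from the *Sst* locus (Sst tm2.1(cre)Zjh/J over wild type, on C57BL/6J), and received AAV2-flex-tdTomato in the lateral tuberal nucleus (TN) of the hypothalamus. The injection and the labeling were shared by both sexes, no uninjected or unsorted sample was analysed here, and the mice were adult when injected (no exact age was given for these libraries in the sources used here). The virus reaches only cells near the needle, and its tdTomato depends on Cre from the *Sst* locus in the infected cell. Single cells in suspension were gated as DAPI-negative, DRAQ5-positive and high in tdTomato, so microglia were not the intended cells. In bulk RNA, fewer cells of a type and less RNA per cell cannot be told apart.

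The authors' estimated counts summed to between 7827943 and 17648108 per mouse. Counts were scaled by TMM to CPM, the counts of a gene for each 1000000 counts of its library, and a count of 3, taken as the limit of detection, equaled 0.148 to 0.458 CPM. The 8 neuron markers examined (*Snap25*, *Syt1*, *Rbfox3*, *Tubb3*, *Stmn2*, *Gad1*, *Gad2*, *Slc32a1*) summed to 2459 to 3015 CPM in females and 1823 to 2446 CPM in males, so neuronal transcripts were present in all mice. The ranges did not overlap but nearly met, at 2459 CPM in the lowest female and 2446 CPM in the highest male. Among single genes tested between the sexes, 10.4% had no overlap. Markers of other cells were present too, with summed levels of 154 to 573 CPM for 6 astrocyte genes, 466 to 1878 CPM for 6 oligodendrocyte lineage genes and 26.6 to 93.7 CPM for 6 endothelial and mural genes. GEO's labels gave no batch or date.

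**Figure D1:**
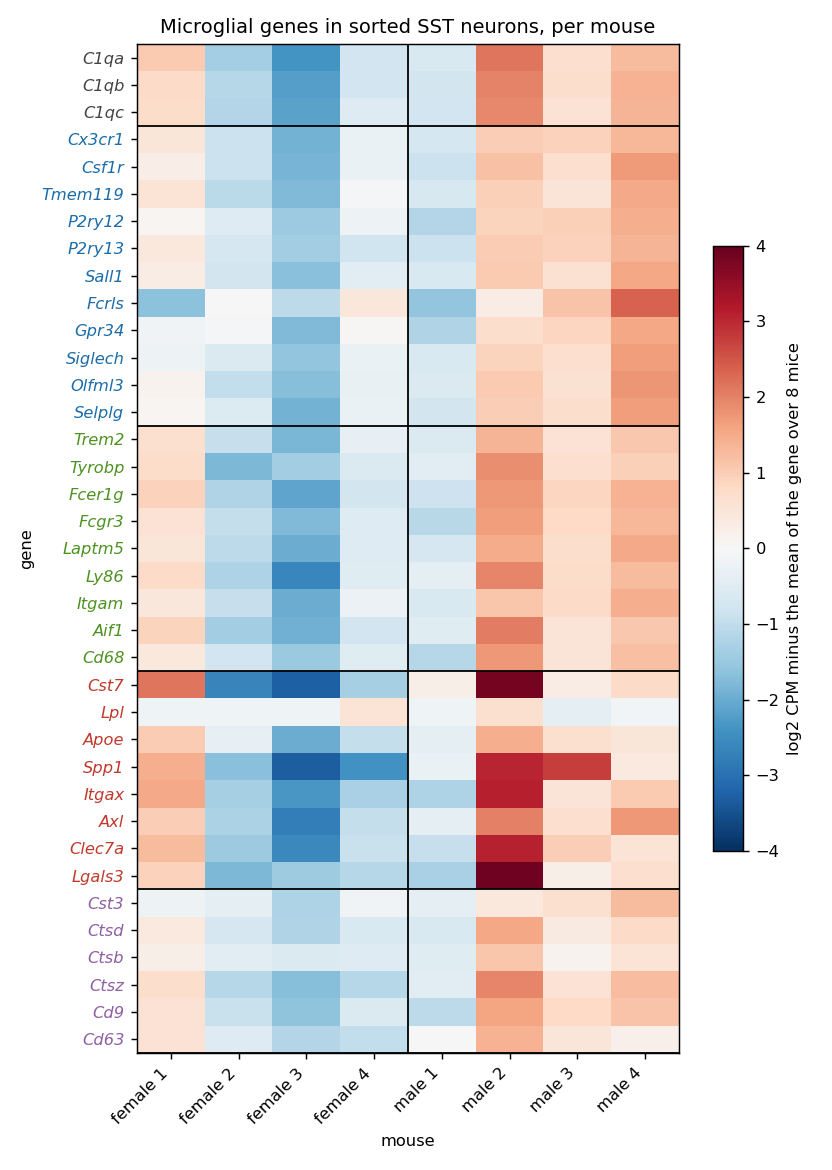
Level of each of the 37 genes in each mouse, as log2 CPM minus the gene's mean over the 8 mice (color, blue low and red high), with genes in rows by group and mice in columns. Most rows are palest or bluest in female 3 and reddest in male 2 or male 4, and the reactive genes *Cst7*, *Itgax*, *Clec7a* and *Lgals3* stand out in male 2.

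The C1q genes set the scale of the microglial signal. C1q is assembled from the products of *C1qa*, *C1qb* and *C1qc*, which lie next to each other on chromosome 4 (mm10). *C1qa* (ENSMUSG00000036887.5, chr4:136895917-136898803, minus strand) measured 280, 52.5, 25.9 and 79.5 CPM (females 1 to 4) and 89.3, 592, 214 and 322 CPM (males 1 to 4). Male 2 was highest and female 3 lowest, and female 1 lay above males 1 and 3, so the sexes overlapped. The sum of the 3 genes was 686, 161, 79.4 and 234 CPM in the females and 232, 1519, 589 and 948 CPM in the males, a 19.1-fold range. The subunits kept similar proportions, since *C1qa* made up 32.6% to 40.8% of that sum in CPM, *C1qb* 30.6% to 34.8% and *C1qc* 28.6% to 35.2%. Per length of transcript, *C1qa* averaged 394.5 TPM, *C1qb* 327 TPM and *C1qc* 270 TPM over the 8 mice.

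As examples, the 250 bases before the RefSeq start sites (GRCm38.p6, the mm10 assembly) of *C1qb*, *C1qc*, *Laptm5*, *P2ry12*, *Cst7* and *Itgax* are shown. They run 5′ to 3′ on the gene's own strand. Capitals mark GAGGAA or its reverse complement TTCCTC, the core recognized by PU.1, the myeloid transcription factor encoded by *Spi1*. The windows lie at chr4:136886201-136886450 (minus) for *C1qb*, chr4:136892915-136893164 (minus) for *C1qc*, chr4:130913066-130913315 (plus) for *Laptm5*, chr3:59262986-59263235 (minus) for *P2ry12*, chr2:150570165-150570414 (plus) for *Cst7* and chr7:128129300-128129549 (plus) for *Itgax*.
*C1qb*: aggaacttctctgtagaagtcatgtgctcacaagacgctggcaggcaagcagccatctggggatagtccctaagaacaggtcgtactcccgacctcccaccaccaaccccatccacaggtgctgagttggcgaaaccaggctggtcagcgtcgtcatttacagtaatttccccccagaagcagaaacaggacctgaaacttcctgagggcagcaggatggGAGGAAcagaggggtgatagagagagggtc
*C1qc*: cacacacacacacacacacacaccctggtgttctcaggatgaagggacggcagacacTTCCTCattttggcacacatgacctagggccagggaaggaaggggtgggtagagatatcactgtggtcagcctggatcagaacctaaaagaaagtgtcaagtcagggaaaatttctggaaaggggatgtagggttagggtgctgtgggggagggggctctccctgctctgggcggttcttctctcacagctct
*Laptm5*: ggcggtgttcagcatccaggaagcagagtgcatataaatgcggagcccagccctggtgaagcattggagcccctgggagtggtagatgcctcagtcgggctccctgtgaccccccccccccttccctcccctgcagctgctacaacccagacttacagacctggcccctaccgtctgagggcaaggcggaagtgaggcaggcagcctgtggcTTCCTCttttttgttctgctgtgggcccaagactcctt
*P2ry12*: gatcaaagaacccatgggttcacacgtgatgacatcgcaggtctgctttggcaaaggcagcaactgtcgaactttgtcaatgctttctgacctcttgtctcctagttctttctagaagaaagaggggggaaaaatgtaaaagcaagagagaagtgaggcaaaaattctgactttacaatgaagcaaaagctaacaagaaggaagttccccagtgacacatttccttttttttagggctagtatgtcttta
*Cst7*: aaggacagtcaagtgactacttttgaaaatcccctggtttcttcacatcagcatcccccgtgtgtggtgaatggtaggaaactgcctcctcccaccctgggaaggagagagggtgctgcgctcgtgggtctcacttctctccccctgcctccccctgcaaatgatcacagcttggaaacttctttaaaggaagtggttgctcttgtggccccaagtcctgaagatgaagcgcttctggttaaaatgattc
*Itgax*: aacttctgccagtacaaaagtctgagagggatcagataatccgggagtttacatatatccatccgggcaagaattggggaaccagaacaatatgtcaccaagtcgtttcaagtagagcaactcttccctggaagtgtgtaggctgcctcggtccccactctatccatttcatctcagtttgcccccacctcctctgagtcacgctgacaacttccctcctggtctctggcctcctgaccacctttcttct

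The set of RefSeq promoters used here held such windows for 29 of the 37 genes, and not for *C1qa*, *Csf1r*, *Tmem119*, *Gpr34*, *Selplg*, *Tyrobp*, *Lpl* and *Ctsb*. The letters GAGGAA, on either strand, stood in at least 1 window of 16 of the 29 genes, or 55.2%, against 25.9% of all 27025 genes in the table. In *C1qb* they began 30 bases before the start site, in *Laptm5* 38 and in *C1qc* 193. By group they were found in 2 of 2 C1q genes, 6 of 8 receptors and adaptors, 4 of 7 reactive genes, 2 of 5 lysosome and tetraspanin genes and 2 of 7 homeostatic genes, and they were not in the windows of *P2ry12*, *Cst7* and *Itgax*. *Spp1*, whose sequence is not shown, held them in 1 window, 113 bases before the start site, and not in its other window. A second motif, CACGTG, which shares no overlap with the first, was in 3 of the 29 genes (10.3%, against 6.86% of all genes). Such matches describe letters only and are neither binding sites nor causes of the levels.

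The homeostatic genes covered a narrower range, between 6.65-fold (*P2ry13*) and 16.0-fold (*Fcrls*) across mice. *P2ry12* (ENSMUSG00000036353.13, chr3:59216272-59262871, minus strand), the purinergic receptor that steers microglial processes toward ATP and ADP, measured 33.9, 22.2, 11.6 and 27.6 CPM (females 1 to 4) and 14.2, 59.3, 61.2 and 86.8 CPM (males 1 to 4). *Tmem119* (ENSMUSG00000054675.5, chr5:113793729-113800516, minus strand), a membrane protein widely used to label microglia, measured 60.1, 19.3, 11.99 and 39.6 CPM in the females and 26.3, 80.0, 58.4 and 117 CPM in the males. For both genes male 4, not male 2, was highest, female 3 was lowest, and male 1 lay within the female range. *Fcrls* (chr3:87250758-87263738), an Fc receptor-like scavenger receptor, departed from this order with 6.33, 19.9, 9.57 and 27.0 CPM in the females and 6.68, 24.4, 43.8 and 101 CPM in the males. Female 1, whose C1q sum was the highest among the females, had the lowest *Fcrls* of all mice.

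The other 8 homeostatic genes were highest in male 4 and lowest in female 3 without exception. *Csf1r*, the receptor for CSF1 and IL-34, ranged from 75.0 to 893 CPM, and *Cx3cr1*, the fractalkine receptor, from 36.7 to 342 CPM. *Selplg*, the ligand of P-selectin, reached from 22.3 to 264 CPM and *Olfml3*, a secreted olfactomedin protein, from 14.9 to 164 CPM, although 90.6% of the *Olfml3* counts fell on transcripts annotated as retaining an intron. *Siglech*, a sialic acid-binding lectin, spanned 11.4 to 109 CPM, *Sall1*, the transcription factor that maintains microglial identity, 11.2 to 104 CPM, *P2ry13*, a second ADP receptor, 6.02 to 40.1 CPM and the orphan receptor *Gpr34* 2.86 to 28.3 CPM. Of the *Siglech* counts, 67.8% fell on a transcript annotated for nonsense-mediated decay and 25.8% on protein-coding ones. The annotation places *P2ry12* and *P2ry13* inside *Med12l* and *Gpr34* inside *Cask*, so that without strand some of their reads could belong to the host gene.

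Genes of phagocyte signaling followed C1q most closely. *Fcer1g*, the Fc receptor gamma chain, measured 34.3, 7.79, 4.19 and 10.8 CPM (females 1 to 4) and 10.1, 60.2, 32.6 and 47.1 CPM (males 1 to 4). In each mouse this was between 3.97% and 5.54% of the C1q sum. *Trem2*, the lipid-sensing receptor of reactive microglia, measured 11.7, 3.97, 2.12 and 6.03 CPM in the females and 5.05, 19.2, 11.2 and 15.9 CPM in the males, and its adaptor *Tyrobp* spanned 3.36 to 42.8 CPM. Male 2 was highest for both, as it was for the TLR cofactor *Ly86* (4.74 to 112 CPM), the calcium-binding protein gene *Aif1*, which encodes IBA1 (3.01 to 46.9 CPM), the lysosomal glycoprotein gene *Cd68* (9.03 to 82.9 CPM) and the Fc receptor *Fcgr3* (8.19 to 88.3 CPM). *Laptm5*, a lysosomal membrane protein of blood cells (29.4 to 333 CPM), and the integrin *Itgam*, or CD11b (26.8 to 288 CPM), were highest in male 4. Counts of *Itgam* could not be fully separated from those of the overlapping gene model *Gm49368*, which was the gene sharing most with it when 75.3% of its 31-base words were found in other genes. For *Fcgr3* 18.4% of the words were found elsewhere, most often in *Fcgr2b*, and 77.6% of its counts fell on transcripts that retain an intron.

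The reactive genes varied most, and male 2 held the highest value of all 8. *Cst7* (ENSMUSG00000068129.5, chr2:150570415-150578944, plus strand), cystatin F, an inhibitor of lysosomal cathepsins, measured 16.8, 0.611, 0.395 and 1.53 CPM (females 1 to 4) and 4.48, 54.2, 4.65 and 6.55 CPM (males 1 to 4). The low values rested on few counts, 4 in female 2 and 8 in female 3, against 591 in male 2. *Itgax* (ENSMUSG00000030789.9, chr7:128129547-128150657, plus strand), the integrin CD11c, measured 32.8, 4.58, 2.32 and 4.68 CPM in the females and 4.97, 98.8, 16.7 and 24.1 CPM in the males. Male 2 and female 1 were the highest 2 mice for both genes, while the other 3 females and male 1 lay together at the low end of *Itgax*. Of the 31-base words of *Itgax*, 12.7% were also found in *Itgad*.

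*Clec7a*, the beta-glucan receptor dectin-1, had the same leading mouse, with 14.9, 2.29, 1.04 and 3.33 CPM in the females and 3.26, 52.5, 12.3 and 9.19 CPM in the males. Of its counts, 59.2% fell on a transcript annotated as a polymorphic pseudogene. *Lgals3*, galectin-3, was at 3.00, 0.458, 0.592 and 0.720 CPM in the females and 0.651, 23.6, 1.88 and 2.52 CPM in the males, so that male 2 stood far from the other 7 mice. *Spp1*, osteopontin, was close to the limit of detection, with 12, 1, 1 and 1 counts in the females and 5, 44, 37 and 5 counts in the males. Males 2 and 3 therefore held most of its counts. *Spp1* did not pass the filter on low counts for the main test between the sexes. *Axl*, a receptor that binds dying cells through Gas6, spanned 6.41 to 178 CPM, with 145 CPM in male 4.

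The last pair of reactive genes behaved differently from the rest. *Apoe*, the main lipid carrier of the brain, which astrocytes also make, measured 950, 376, 121 and 243 CPM in the females and 371, 1305, 742 and 662 CPM in the males. Its mean of 1787 TPM placed it 25th among the 24952 genes with any count. *Lpl*, lipoprotein lipase, which neurons also express, measured 8.88, 8.71, 8.88 and 14.5 CPM in the females and 8.71, 15.4, 7.51 and 9.19 CPM in the males. Its 2.05-fold range was the smallest of the 37 genes, and 74.6% of its counts fell on transcripts that retain an intron. The SD of its log2 CPM, 0.37, was still above the median of 0.28 for all genes tested.

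Genes of lysosomes and tetraspanins varied between 3.18-fold (*Ctsb*) and 12.6-fold (*Ctsz*) across mice. *Cst3*, cystatin C, averaged 2012 TPM, the 17th highest level of all genes, and ranged from 167 to 931 CPM. The cathepsins *Ctsd* (187 to 1276 CPM), *Ctsb* (331 to 1054 CPM) and *Ctsz* (22.9 to 289 CPM) and the tetraspanins *Cd9* (8.83 to 80.2 CPM) and *Cd63* (13.2 to 77.8 CPM) all peaked in male 2. Part of the sequence of *Cd63* (49.6% of its words, most often in *Cd63-ps*), *Ctsd* (37.1%, most often in *Gm49369*), *Cd9* (22.0%) and *Ctsb* (16.6%) is held in common with other gene models, so their counts carry that uncertainty.

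Over the genes tested, the spread between mice was large. The 36 genes with enough counts had a median SD of log2 CPM of 1.16 over the 8 mice, against 0.28 for all 15194 genes tested. Male 2 was the highest mouse for 23 of the 37 genes and male 4 for the other 14. Female 3 was the lowest for 33 genes, female 2 for *Tyrobp* and *Lgals3*, female 1 for *Fcrls* and male 3 for *Lpl*. Each mouse's values had been deposited in 2 blocks, and between these blocks the same genes differed by a median of 0.11 on the log2 scale.

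The question of how homeostatic and reactive genes compare within each mouse was addressed by the ratio of summed CPM of *P2ry12* and *Tmem119* to that of *Cst7*, *Spp1* and *Itgax*. The ratio was 1.85, 7.74, 8.54 and 10.7 (females 1 to 4) and 4.11, 0.887, 4.85 and 6.53 (males 1 to 4). Male 2 was the single mouse in which the reactive trio exceeded the homeostatic pair, with 1713 counts against 1520. Female 1 came next, with 458 counts against 846. The 95% exact binomial intervals, which cover counting error only, were 0.828 to 0.951 for male 2 and 1.65 to 2.07 for female 1 and overlapped those of no other mouse. Those of females 2, 3 and 4 (5.43 to 11.3, 6.46 to 11.5 and 8.34 to 13.8) overlapped each other, as did those of males 1 and 3 (3.36 to 5.05 and 4.26 to 5.54). Overlap also ran across the sexes, between male 4 (5.71 to 7.50) and females 2 and 3 and between male 3 and female 2.

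On the log2 scale the ratio was 2.59 ± 1.15 in females and 1.71 ± 1.29 in males (mean ± SD, n = 4 each). The difference of 0.87 was smaller than the spread within either sex, and a score over chosen genes was given no test. Without male 2 the difference was 0.25, and without female 1 it was 1.44. The same 3 mice, male 2, female 1 and male 1 in that order, were lowest with TPM in place of CPM, without *Spp1*, with either block alone, and when all 11 homeostatic genes were set against the reactive genes other than *Apoe*. With those longer lists the range shrank from 3.59 to 1.88 on the log2 scale. *Apoe* (121 to 1305 CPM) exceeded each other reactive gene in every mouse and would dominate their sum. The order of mice for the longer lists is therefore given without *Apoe* only and may differ with it.

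**Figure D2:**
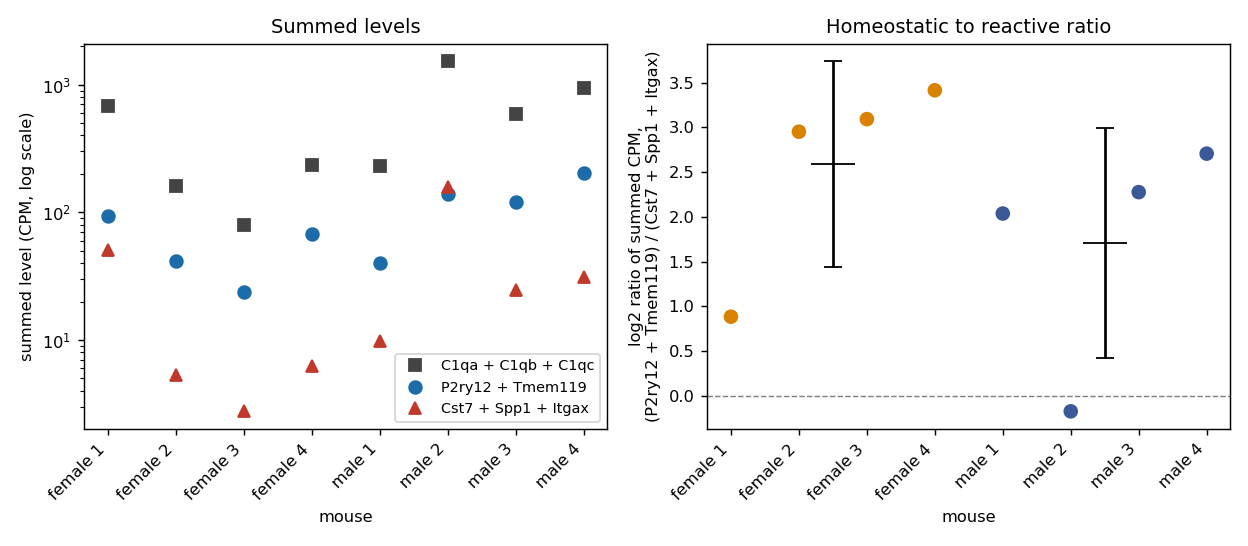
Left, summed CPM (log axis) of the 3 C1q genes (squares), of *P2ry12* and *Tmem119* (circles) and of *Cst7*, *Spp1* and *Itgax* (triangles) in each mouse. Right, log2 of the ratio of circles to triangles for each mouse, with the mean and SD of each sex as a bar, where the dashed line marks equal levels and male 2 (ratio 0.887) lies below it.

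Set against C1q, both sides of the ratio contributed. The homeostatic pair equaled 13.7%, 25.7%, 29.7% and 28.7% of the C1q sum (females 1 to 4) and 17.4%, 9.17%, 20.3% and 21.5% (males 1 to 4). The reactive trio equaled 7.41%, 3.31%, 3.48% and 2.69% in the females and 4.24%, 10.3%, 4.18% and 3.30% in the males. Female 1 and male 2 thus had the lowest share of the pair and the highest share of the trio. Relative to C1q, all 11 homeostatic genes had their lowest 2 values in these mice, with male 2 the lowest for 10 genes and female 1 for *Fcrls*. Male 4 had the second highest C1q sum, 948 CPM against 686 CPM in female 1, and was among the lowest 2 mice for none of the 11 genes. Low values relative to C1q in male 2 were not particular to homeostatic genes. Male 2 was also the lowest mouse for 14 of 25 other microglial genes, 12 of 20 other reactive genes and all 8 neuron markers, while female 1 was among the lowest 2 for 18, 6 and 0 genes of these lists.

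*Fcrls* was the extreme case, at 0.930% of the C1q sum in female 1, 1.61% in male 2 and 2.89% in male 1, against 7.43% to 12.3% in the other 5 mice. *Siglech* stood at 4.31% and 4.18% in female 1 and male 2 and at 9.28% to 14.4% in the rest. Reactive genes were less uniform. Relative to C1q, 3 of the 8 reactive genes had their highest 2 values in female 1 and male 2. Male 2 was among the highest 2 mice for 5 of the 8. It was among the lowest 2 for 2, *Apoe* (85.9% of the C1q sum) and *Lpl* (1.02%). *Cst7* relative to C1q was highest in male 2 (3.57%), female 1 (2.45%) and male 1 (1.94%) and between 0.426% and 0.796% elsewhere, whereas *Axl* kept within 8.10% to 15.3% in all mice. *Spp1* was highest in male 3, at 0.568%.

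**Figure D3:**
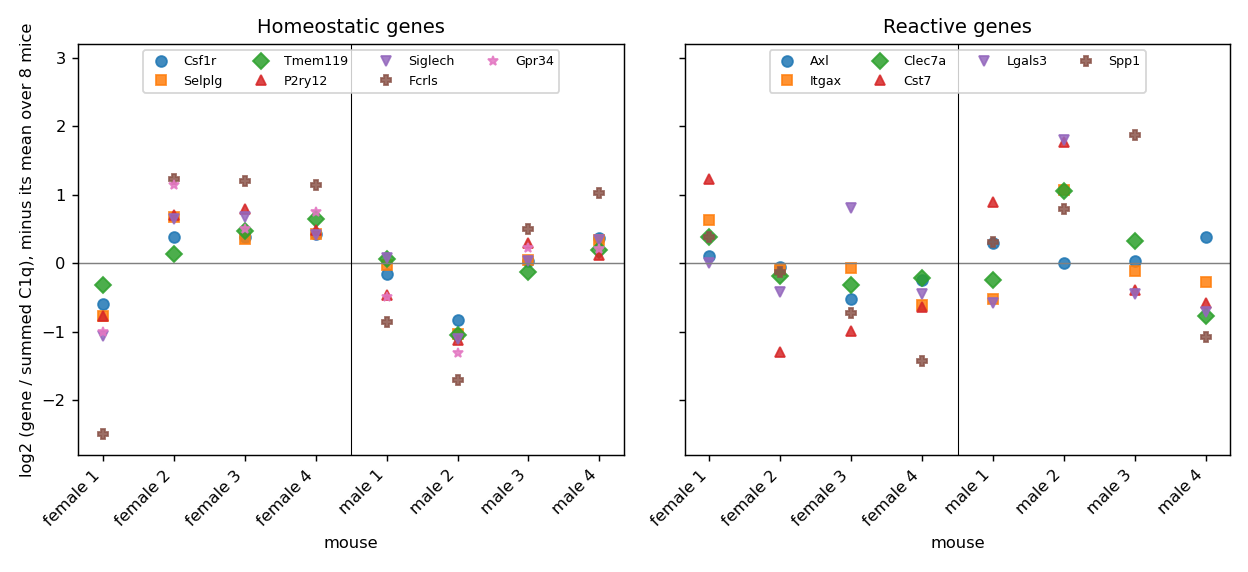
Log2 of each gene's level relative to the summed C1q genes, minus its mean over the 8 mice, for 7 homeostatic genes (left) and 6 reactive genes (right), with females left of the vertical line in each panel. The homeostatic genes are lowest in female 1 and male 2, while *Cst7*, *Itgax* and *Clec7a* are highest in these mice and *Axl* stays near 0. The reactive genes *Apoe* and *Lpl* are not shown.

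For 30 of the 34 genes other than C1q, the SD of this proportion over mice was smaller than the SD of the level itself, and the medians were 0.55 and 1.15 on the log2 scale. The exceptions were *Fcrls*, *Lpl*, *Cst3* and *Ctsb*. The steadiest were *Fcer1g* (SD 0.16), *Aif1* (0.20) and *Ly86* (0.21). By group, the median SD of the proportion was 0.32 for receptors, adaptors and phagocyte genes, 0.58 for homeostatic genes, 0.66 for lysosome and tetraspanin genes and 0.72 for reactive genes. These values describe 8 mice that share 1 denominator, and a gene that did not vary at all would take on the spread of C1q. With *Csf1r*, *Laptm5* and *Ctss* as the denominator the count was 33 of 35 genes.

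**Figure D4:**
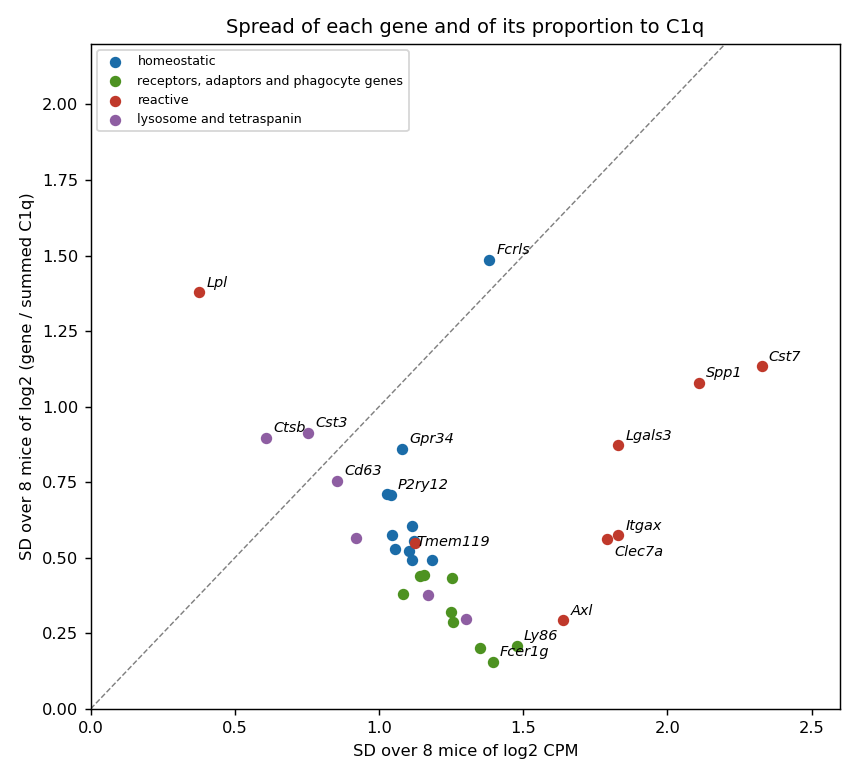
SD over the 8 mice of log2 CPM (x axis) and of log2 level relative to summed C1q (y axis) for the 34 genes other than C1q, colored by group. Points under the dashed line of equality are steadier relative to C1q than in level, and *Fcrls*, *Lpl*, *Cst3* and *Ctsb* lie above it.

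Females and males were compared for each gene, since the study asks how these neurons differ by sex. None of the 36 genes tested differed at an adjusted p under 0.05 (quasi-likelihood test of edgeR, Benjamini-Hochberg adjusted over all 15194 genes, with values from 0.145 to 0.992), where 0.158% of all genes did, or 24. By DESeq2 none of the 35 members given an adjusted p was called either, where 7.13% of the genes it adjusted were. The fitted level was lower in females for 35 of the 36, against 50.6% of all genes, and higher only for *Lpl*. Markers of other glia lay the same way, since all 6 astrocyte genes (median log2 fold change -0.79) and all 6 oligodendrocyte lineage genes (median -0.90) were lower in females, and all 8 neuron markers were higher (median 0.23), none of them called by edgeR (2, 3 and 3 at an unadjusted p under 0.05). Their part in the lower values of the microglial genes was not tested. At an unadjusted p under 0.05 (edgeR), 22 genes were lower in females, against 10.7% of all genes. DESeq2, run on unfiltered counts, gave 22 members at an unadjusted p under 0.05 in either direction, *Spp1* among them. The share was 13.6% of all genes to which DESeq2 gave a p, including genes without an adjusted p. In none of the 36 did all mice of 1 sex lie above all of the other, as was the case for 10.4% of all genes. Levels of most of these genes move together across mice, so the counts are not 36 separate observations.

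The median log2 fold change of female over male was -1.39, against -0.00 for all genes. The smallest adjusted p was that of *Siglech*, with 23.0 ± 8.22 CPM in females and 62.3 ± 35.7 CPM in males (mean ± SD, n = 4) and a log2 fold change of -1.44 ± 0.45 (SE, adjusted p = 0.145, edgeR). *C1qa* averaged 110 ± 116 CPM in females and 304 ± 214 CPM in males, a log2 fold change of -1.48 ± 0.74 (adjusted p = 0.291, edgeR). *P2ry12* had -1.22 ± 0.49 (adjusted p = 0.218, edgeR) and *Tmem119* -1.11 ± 0.54 (adjusted p = 0.275, edgeR). *Cst7* had -1.88 ± 1.23 (adjusted p = 0.407, edgeR) and *Itgax* -1.72 ± 1.00 (adjusted p = 0.353, edgeR). By group the median was -1.48 for C1q, -1.31 for homeostatic genes, -1.39 for receptors and adaptors, -1.72 for reactive genes and -1.07 for lysosome and tetraspanin genes.

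**Figure D5:**
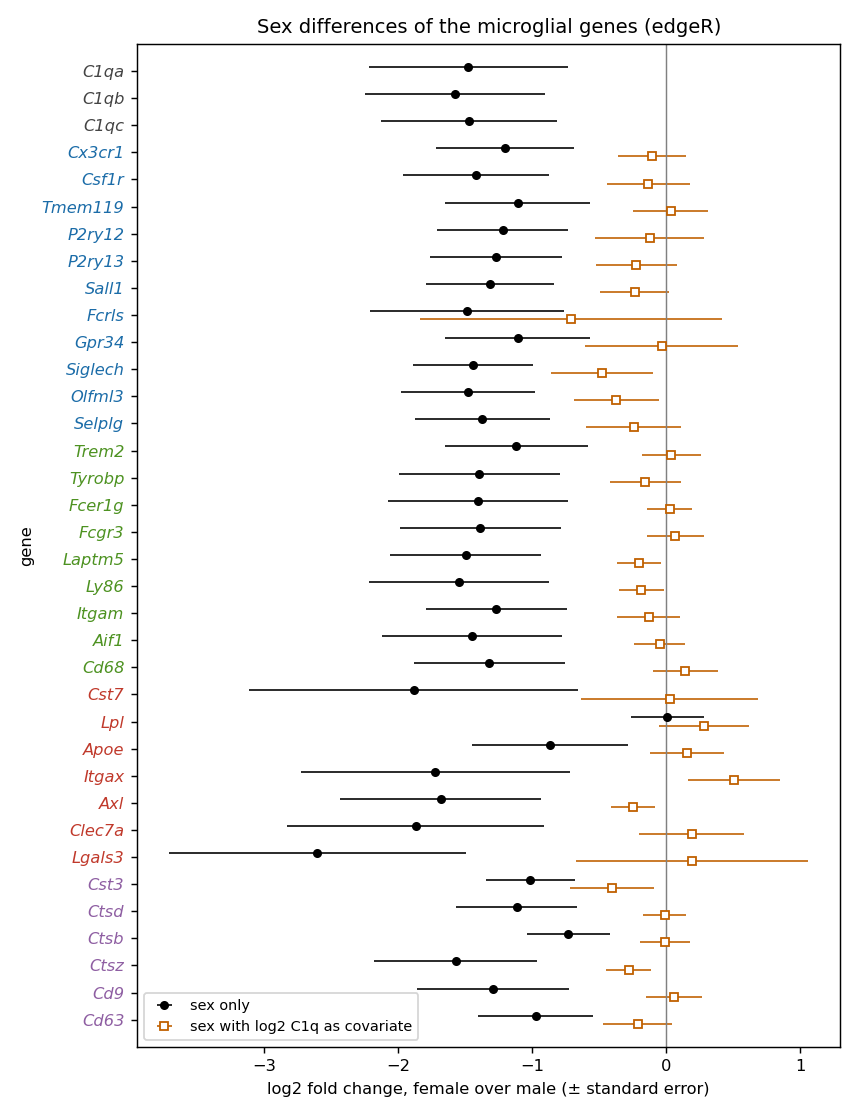
Log2 fold change of female over male with its standard error for the 36 genes tested (edgeR), with sex alone in the model (filled circles) and with log2 C1q added as a covariate (open squares, 33 genes). With sex alone all genes but *Lpl* lie left of 0 and none passed an adjusted p under 0.05, and with the covariate the median is -0.10.

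Single mice decided the calls. When each was left out in turn, between 4 and 33 members had an unadjusted p under 0.05, against 12.5% to 26.2% of all genes, and 33 did with no filter on low counts, against 14.9%. Without female 1, 2.67% of all genes passed (415 genes), among them *Ctsz* (-2.39, adjusted p = 0.0458, edgeR). Without male 1, 2.65% passed (411 genes), among them *P2ry12* (-1.54, adjusted p = 0.0484, edgeR) and *Siglech* (-1.73, adjusted p = 0.0476, edgeR). Leaving out both female 1 and male 2, an alternative added after the data were seen, gave 0.406% of all genes, none of the 35 members tested, 32 of these at an unadjusted p under 0.05 (19.3% of all genes) and a median of -1.64. With log2 C1q as a covariate 0.0856% of all genes passed and none of the 33 members tested, 0 at an unadjusted p under 0.05 (7.32% of all genes), and the median log2 fold change was -0.10. For *Cst7* the log2 fold change was -4.40 without female 1 and -0.13 without male 2. The corresponding values were -3.27 and -0.47 for *Itgax* and -2.54 and -0.93 for *C1qa*.

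Genes of other microglial lists were mostly lower in females too. All 25 other genes of microglia examined (among them *Ctss*, *Spi1*, *Irf8* and *Ptprc*) were lower in females, 17 of them at an unadjusted p under 0.05 and 0 at an adjusted p under 0.05 (edgeR), with a median of -1.40. DESeq2 called *Abi3* (adjusted p = 0.00892) and *P2ry6* (adjusted p = 0.0390) among them. Their sum was 404 to 2337 CPM in females and 845 to 4567 CPM in males, highest in male 2. Of 20 other reactive genes 19 were lower in females, 10 at an unadjusted p under 0.05 and none after adjustment (edgeR), and DESeq2 called *Ctsl* (adjusted p = 0.00578) and *Ccl6* (adjusted p = 0.0211). For comparison with both lists, 10.7% of all genes were lower in females at an unadjusted p under 0.05 (edgeR). DESeq2 called 7.13% of all genes it adjusted. The genes through which other cells address microglia were split. *Cx3cl1*, the fractalkine that neurons make, had a log2 fold change of 0.45 ± 0.11 (adjusted p = 0.100, edgeR, and 0.0109 by DESeq2) and *Il34*, a neuronal ligand of CSF1R, 0.58 ± 0.18 (adjusted p = 0.146, edgeR), while *Csf1* had -0.72 and *Tgfb1* -1.44, and with edgeR all 4 fell short of the threshold. Each female exceeded each male in both *Cx3cl1* (264 to 362 CPM against 196 to 234 CPM) and *Il34* (11.9 to 18.5 CPM against 8.13 to 10.8 CPM). The sexes did not overlap, in either direction, for 10.4% of all genes tested. Some neuron markers differed by a similar amount, with log2 fold changes of 0.68 for *Rbfox3* (adjusted p = 0.0655, edgeR, and 9.4e-05 by DESeq2), 0.55 for *Syt1* (0.0797 and 0.000754) and 0.48 for *Snap25* (0.0913 and 0.00405). The rest differed by less, from 0.06 (*Gad1*) to 0.32 (*Slc32a1*), and the median of the 8 markers was 0.23.

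Markers of neighboring blood and border cells moved with some of these values. The 8 border macrophage markers summed to 12.1 to 23.4 CPM in females and to 11.6, 68.1, 34.9 and 70.8 CPM (males 1 to 4). All 5 that could be tested were lower in females, 0 of them called by edgeR. At an unadjusted p under 0.05 (edgeR), 3 of them were lower in females, against 10.7% of all genes. DESeq2 called *Mrc1* (adjusted p = 0.00180), where it called 7.13% of all genes it adjusted. *Stab1* was the largest contributor in every mouse, *Lyve1*, *Pf4* and *Cbr2* were at 0 counts in at least 3 females, and *Mrc1* lay between 0.888 and 12.5 CPM. The 8 lymphocyte markers summed to 4.05 to 8.44 CPM in females and to 11.7, 49.3, 12.1 and 1.76 CPM (males 1 to 4), highest in male 2. The 8 monocyte and neutrophil markers summed to 1.07 to 12.3 CPM, again highest in male 2, with *Ly6g* at 0 in all mice and *S100a8* at 0 in all but male 2, which had 1 count. Male 2 thus led in summed C1q, lymphocyte and monocyte genes alike, and the part of these other cells in the values of *Cst7*, *Itgax* and *Lgals3* was not tested.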

How the data were processed

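RNA of TN SST neurons from 4 female and 4 male mice was sequenced with the SMARTer Stranded Total RNA-Seq Kit v2 as single-end reads. The authors matched reads against mm10 transcripts with kallisto (0.46.2 in the submitters' processing notes) and deposited, per transcript, estimated counts, which are not normalized, and TPM. Each mouse's table held 2 blocks of the same transcripts, whose meaning is not given in the sources used here, so the deposited TPM signal of a table sums to 2 times the usual total. Effective lengths were deposited as well.

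Estimated counts of both blocks were summed, joined to genes with GENCODE M21 (116728 of 118489 transcripts, leaving out 0.429% to 0.611% of counts) and rounded. TPM are means over blocks. Tests of sex used edgeR 4.0.16 under R 4.3.3 (TMM, default filter by sex, quasi-likelihood test, Benjamini-Hochberg adjustment, threshold 0.05), the test that estimated counts call for, with no term besides sex. DESeq2 1.42.0, the study's tool, was the alternative test and was run on unfiltered counts. Log2 CPM used a prior count of 2, and levels relative to C1q an added 0.5 count. Of 37 members, 36 passed the filter on low counts, and *Spp1* did not. Joins, intervals and plots used scipy 1.17.1, pandas 2.3.3 and numpy 2.4.6 under Python 3.11.15. The tests were tried on simulated data with known answers.

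Members and lists were chosen with earlier results of these data known. Every member is named. Genes of other lists are named where a list's sum rests on them, or as defining markers at or near 0. The other microglial genes given as examples, *Cx3cl1*, *Il34*, *Csf1*, *Tgfb1*, and genes called by DESeq2 alone were named after their values were seen. Alternatives were RLE scaling, 2 other filters, a replicate block, a length offset, each block alone, removal of *Lars2*, a C1q covariate, and leaving out each mouse in turn. Shared sequence was measured as 31-base words of GENCODE M21 transcripts. Promoter windows and their sequence come from RefSeq (GRCm38.p6). Whether counting used strand is not given in the sources used here. Depth limits low genes most, and limits given as 3 counts leave out all error but that of counting, and the sources used here name no molecular identifiers.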

Additional observations from a re-analysis of the deposited data

Results flagged for a closer look

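Groups of 4 mice of 1 sex were examined for 1 gene's log2 CPM, its log2 level relative to C1q, or the log2 homeostatic to reactive ratio. Among 142 such groups, 13 held a mouse whose gap to the next mouse, divided by the range of the group, was over Dixon's 95% critical value. The ratio was not flagged in either sex. Chance flags about 1 in 20 groups, and the genes are not independent of each other.

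In level, *Gpr34* was set apart by female 3, the lowest female (0.890), *Cst7* by male 2, the highest male (0.848), *Lpl* by female 4, the highest female (0.961), and *Ctsb* by female 1, the highest female (0.844). Female 3 had 58 counts of *Gpr34* and male 2 had 591 of *Cst7*.

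Relative to C1q, female 1 was set apart as the lowest female for *Cx3cr1* (0.918), *Csf1r* (0.946), *Fcrls* (0.975), *Siglech* (0.851), *Trem2* (0.837) and *Laptm5* (0.841). Male 2 was set apart as the lowest male for *Itgam* (0.967) and the highest male for *Lgals3* (0.897). Male 1 was set apart as the highest male for *Ctsz* (0.918). For *Fcrls* the log2 level relative to C1q was -6.75 in female 1, with -3.11 in the nearest female. For *Lgals3* it was -6.01 in male 2, with -8.26 in the nearest male.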

How the results depend on the processing

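The number of genes called between the sexes, 24 of all genes, was 1001 with DESeq2, 14 with a length offset, 13 with C1q as a covariate, 62 without female 1 and male 2 (added after the data were seen) and 8 to 415 when each mouse was left out in turn. The number of members called, 0, was 0 to 2 when each mouse was left out and 0 under all other alternatives run. With the replicate number as a block, 1 gene and 0 members were called (9 members at an unadjusted p under 0.05, against 15.7% of all genes, edgeR). Correlations of same-numbered mice were -0.40, -0.16, 0.04 and 0.07, and only female 4 correlated best with the mouse of its own number. These few correlations gave no sign of pairing, but they cannot decide whether same-numbered mice were handled together.

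The members' median log2 fold change was -0.10 with C1q as a covariate and -1.78 to -1.06 when each mouse was left out. Under the covariate 11 members changed sign, to 0.0339 (*Tmem119*), 0.0373 (*Trem2*), 0.0249 (*Fcer1g*), 0.0664 (*Fcgr3*), 0.14 (*Cd68*), 0.0253 (*Cst7*), 0.16 (*Apoe*), 0.51 (*Itgax*), 0.19 (*Clec7a*), 0.19 (*Lgals3*) and 0.0564 (*Cd9*). *Lpl* had -0.0554 in the first block alone and -0.21 to 0.28 when each mouse was left out. The cause was not tested. The range of the homeostatic to reactive ratio was 1.88 on the log2 scale with the full lists and 2.53 to 3.59 when each mouse was left out, and the female minus male difference was 0.25 to 1.44. Of 678 refits of single members 659 kept direction and side of the threshold, 16 changed sign and 3 came under an adjusted p of 0.05.

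Depth limits the low genes. *Spp1*, *Cst7* and *Lgals3* rested on 1 to 17 counts in females 2, 3 and 4.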

Other observations

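Genes outside the 37 members were looked at after their values were seen, and are given as values. *Lyz2*, lysozyme, measured 51.3, 4.12, 3.90 and 5.76 CPM (females 1 to 4) and 7.49, 113, 14.1 and 16.7 CPM (males 1 to 4). *Cybb*, the catalytic subunit of the phagocyte NADPH oxidase, measured 72.5, 4.58, 3.01 and 9.18 CPM in the females and 10.6, 144, 35.9 and 56.3 CPM in the males. For both, male 2 and female 1 were the highest 2 mice, as for *Cst7* and *Itgax*.

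The chemokine gene *Ccl3* and the cytokine gene *Tnf* were highest in male 4. *Ccl3* reached 227 CPM in male 4 and 105 CPM in male 2, and *Tnf* 133 CPM in male 4 and 52.0 CPM in male 2, while *Il1b* was highest in male 2 with 101 CPM. *Cd86* was nearly proportional to C1q, with an SD of 0.12 on the log2 scale over the 8 mice, and *Ctss* with 0.11. *Timp2* hardly varied, between 487 and 570 CPM.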
